A study of Homo sapiens with 11 samples.

Results

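Type I interferon stimulated genes are the genes that cells switch on after interferon alpha or beta binds its receptor. A list of 56 of them was followed through RNA sequencing of PC3 and DU145 prostate cancer cells with and without overexpression of the sialyltransferase ST6GAL1. The members were chosen by gene symbol, through the Entrez identifier, and all 56 were found among the 28395 genes of the count tables. They fall into 14 subgroups by the function of their proteins, from the IFIT and OAS families to transcription factors and ubiquitin-like conjugation enzymes.

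PC3 and DU145 are established human prostate cancer lines, the former from a bone metastasis and the latter from a brain metastasis. Overexpressing cells carried ST6GAL1 from purified lentiviral particles, and control cells (Lenti-ORF control) carried the matching negative-control particles, so every library came from stably transduced cells. The promoter that drives the transgene, and whether the cells are clones or pools, are not given in the sources used here. There were 3 control and 3 overexpression libraries of PC3, 3 control libraries of DU145 and 2 overexpression libraries of DU145 (biological replicates 2 and 3), 11 in all. The labels call them biological replicates without saying how the cultures were kept apart, so the p-values measure the spread between these libraries. How many separately transduced populations each group holds is not given in the sources used here. An effect of ST6GAL1 therefore cannot be told apart from another difference between the transduced populations that were compared.

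Interferon alpha and beta bind the receptor pair IFNAR1 and IFNAR2, which activates the kinases JAK1 and TYK2. These phosphorylate STAT proteins, STAT2 joins IRF9 in the complex ISGF3, and ISGF3 binds the interferon stimulated response element in the promoters of its target genes. Many of the induced proteins block viruses by sensing, binding or degrading foreign RNA, and many are also induced by interferon gamma, by IRF3 or at a low level without any interferon.

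Library totals ran from 13194485 to 18201359 counts, so that the floor of 3 counts corresponds to 0.165 to 0.227 CPM (counts scaled to a common library total) in single libraries. Levels are given below as normalized CPM, that is CPM on library sizes scaled by TMM over all 11 libraries, and fold changes are on the log2 scale, each with its standard error (SE). ST6GAL1 itself read 2.97, 2.09 and 3.07 normalized CPM in PC3 control and 33.3, 31.7 and 32.6 with overexpression, and 14.3, 13.1 and 11.4 in DU145 control against 347 and 299 with overexpression, higher in all 5 overexpression libraries than in any control library of the same line. CTNNA1, which PC3 cells are known to have lost, read 0.938 to 1.58 normalized CPM over the PC3 libraries and 552 to 574 over the DU145 libraries. Of 8 immune cell markers 2 were at 0 in every library, and their summed level was 0.443 to 0.978 in PC3 control, 0.938 to 1.09 in PC3 with ST6GAL1, 1.65 to 2.51 in DU145 control and 2.64 to 2.9 in DU145 with ST6GAL1. The summed level of 4 epithelial genes was 511 to 531 in PC3 control and 496 to 499 with ST6GAL1, and 1050 to 1090 in DU145 control and 881 to 957 with ST6GAL1, most of it from KRT8 and KRT18. Within that list CDH1 rose in PC3 (log2 fold change 1.37, edgeR adjusted p = 7.85e-18) and KRT8 fell there (-0.21, edgeR adjusted p = 3.93e-08). In DU145 CDH1 rose (0.26, edgeR adjusted p = 0.0258). The other markers EPCAM, KRT8 and KRT18 fell in DU145 (-0.35, -0.27 and -0.25, edgeR adjusted p = 0.0219, 0.0323 and 0.026). The summed level of 5 fibroblast and endothelial genes was 31.4 to 33.4 in PC3 control and 24.3 to 24.9 with ST6GAL1, and 5.55 to 7.93 in DU145 control and 4.58 to 8.76 with ST6GAL1. Among them COL1A1 fell in PC3 (-0.47, edgeR adjusted p = 3.96e-07) and PECAM1 rose in DU145 (1.63, edgeR adjusted p = 0.0259). The part of these markers in the results below was not tested. The 2 DU145 overexpression libraries differed more from each other than any other replicate pair (chi-square per gene of 12.584, against 1.373 to 5.209 elsewhere).

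Promoters of called members are shown first, selected with and without a match to the response element through which the pathway is known to act. Sequence from 250 bases before to 50 bases after the transcription start was held for 46 of the 56 members (RefSeq, GRCh38.p14), and none was held for DHX58, OASL, USP18, MX2, IFITM2, IFIT2, OAS2, LAMP3, IRF7 and GBP2. The response element was searched on both strands as 2 copies of GAAA with any 2 bases between them. It was found in 31 of the 46 members (67.4%), while 4.38% of 27305 genes with such a window held it. A gene with several annotated starts had several windows and counted where any of them held a match. The 6 called members with the largest fold change among those that hold it are printed 5′ to 3′ on the gene's own strand, 100 bases each, with the matches in capitals, and a match on the opposite strand reads as 2 copies of TTTC in this orientation.
SAMD9 (chr7:93118061-93118160, minus strand): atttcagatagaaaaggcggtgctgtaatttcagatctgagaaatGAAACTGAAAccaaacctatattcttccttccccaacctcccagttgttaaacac
GBP4 (chr1:89198937-89199036, minus strand): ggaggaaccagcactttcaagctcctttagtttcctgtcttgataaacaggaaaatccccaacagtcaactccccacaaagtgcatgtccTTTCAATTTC
BST2 (chr19:17405703-17405802, minus strand): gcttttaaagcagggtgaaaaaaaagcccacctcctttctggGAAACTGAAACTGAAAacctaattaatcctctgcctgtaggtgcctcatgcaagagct
GBP1 (chr1:89065281-89065380, minus strand): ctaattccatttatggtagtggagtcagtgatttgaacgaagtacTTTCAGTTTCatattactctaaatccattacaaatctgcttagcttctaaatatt
IFITM1 (chr11:313944-314043, plus strand): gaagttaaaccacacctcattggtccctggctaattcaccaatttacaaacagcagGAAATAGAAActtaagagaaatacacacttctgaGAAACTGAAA
RSAD2 (chr2:6877587-6877686, plus strand): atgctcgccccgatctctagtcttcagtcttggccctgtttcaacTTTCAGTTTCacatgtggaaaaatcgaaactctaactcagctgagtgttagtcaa
In SAMD9 the match ran from base -136 to -127 of the start, and in GBP4 it lay across the start itself. BST2 held 2 overlapping matches that share 1 GAAA. RSAD2 had 2 windows, and the printed bases precede a start inside the gene, which begins at base 6865885. Its window at that first base held no match. The sequence GAAACTGAAA was the most frequent form and occurred in 14 members, followed by GAAACCGAAA in 9. The 2 called members with the largest fold change and no match to that pattern, XAF1 and OAS1, are shown over the 100 bases before an annotated start. XAF1 had 2 windows, and the printed bases lie inside the gene, which begins at base 6755447. The pattern allows only a gap of 2 bases, so a promoter without a match is not shown to lack a response element.
XAF1 (chr17:6755946-6756045, plus strand): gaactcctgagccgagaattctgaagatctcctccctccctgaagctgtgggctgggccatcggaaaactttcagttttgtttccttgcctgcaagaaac
OAS1 (chr12:112906862-112906961, plus strand): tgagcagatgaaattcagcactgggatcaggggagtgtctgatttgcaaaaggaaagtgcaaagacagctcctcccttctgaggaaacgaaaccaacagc
Both hold 2 copies of GAAA only 1 base apart, in OAS1 at bases -17 to -9 and in XAF1 across the start. That spacing, searched after the promoters had been seen, occurred in 17 of the 46 members (37.0%) and in 3.87% of all genes with a window. The looser STAT site (TTC and GAA with any 3 bases between them) was found in 14 members (30.4%) against 9.38% of all genes.

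**Figure D1:**
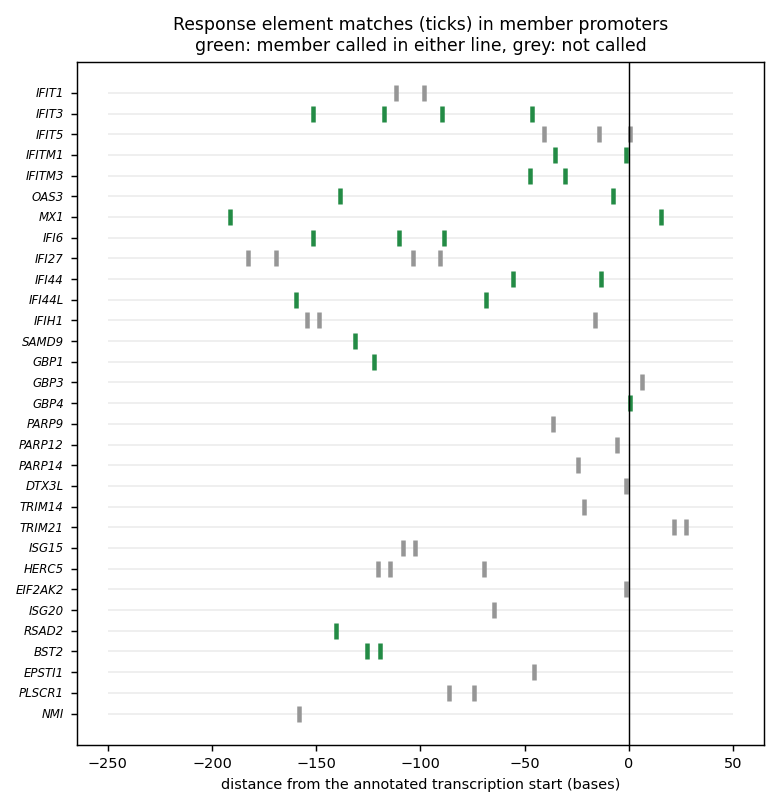
Positions of response element matches (ticks) in the promoters of the 31 members that hold one, in bases from the annotated transcription start of their window (horizontal axis). Green ticks mark members called in PC3 or DU145 and grey ticks members called in neither line, and matches of both kinds lie mostly within 200 bases before the start.

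Matches were found among members with and without a call. In PC3 it was held by 7 of 11 called members with a window and by 22 of 33 tested members without a call. In DU145 it was held by 5 of 6 members that rose, by both of the members that fell and by 17 of 28 without a call. A match in these letters is a description of the window and not evidence of binding in these cells.

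More interferon stimulated genes rose than fell with ST6GAL1 overexpression in both lines. GBP4, BST2 and XAF1 rose most in PC3, by log2 fold changes of 3.21, 2.86 and 2.84, and none of them had enough counts to be tested in DU145. In DU145 SAMD9 rose most, by 4.03, followed by IFITM1 (1.81) and IFIT2 (1.47). The genes LAMP3, OAS3 and MX1 fell in DU145, by 1.17, 1.05 and 0.90 on the log2 scale.

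A gene was called when edgeR's quasi-likelihood test gave an adjusted p under 0.05 and the log2 fold change was over 0.58 in size. Of the 56 members 51 had enough counts to be tested in PC3, and 13 were called higher and 0 lower, where 3.61% of all 13544 tested genes were called higher and 1.76% lower. DESeq2 and limma-voom also called 0 members lower in PC3, and 5 members were lower at an unadjusted p under 0.05, none of them past the fold threshold. Without the fold threshold 30 members were higher and 4 lower, against 18.8% and 18.5% of all genes. The median log2 fold change over the 51 was 0.33, and over all tested genes it was -0.002. In 33 members every overexpression library lay above every control library and in 4 every one lay below, against 23.2% and 23.0% of all tested genes.

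In DU145 45 members were tested, of which 10 were called higher and 3 lower, where 4.33% of 13676 genes were called higher and 4.61% lower. Past the adjusted p alone were 17 higher and 4 lower members, against 10.7% and 9.42% of all genes. The median over the 45 was 0.18, beside -0.002 over all genes. The overexpression libraries lay entirely above the controls in 23 members and entirely below in 4, against 24.7% and 23.7% of all genes. Since the members were picked with earlier results of these data known, these counts describe the list and carry no test of it.

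**Figure D2:**
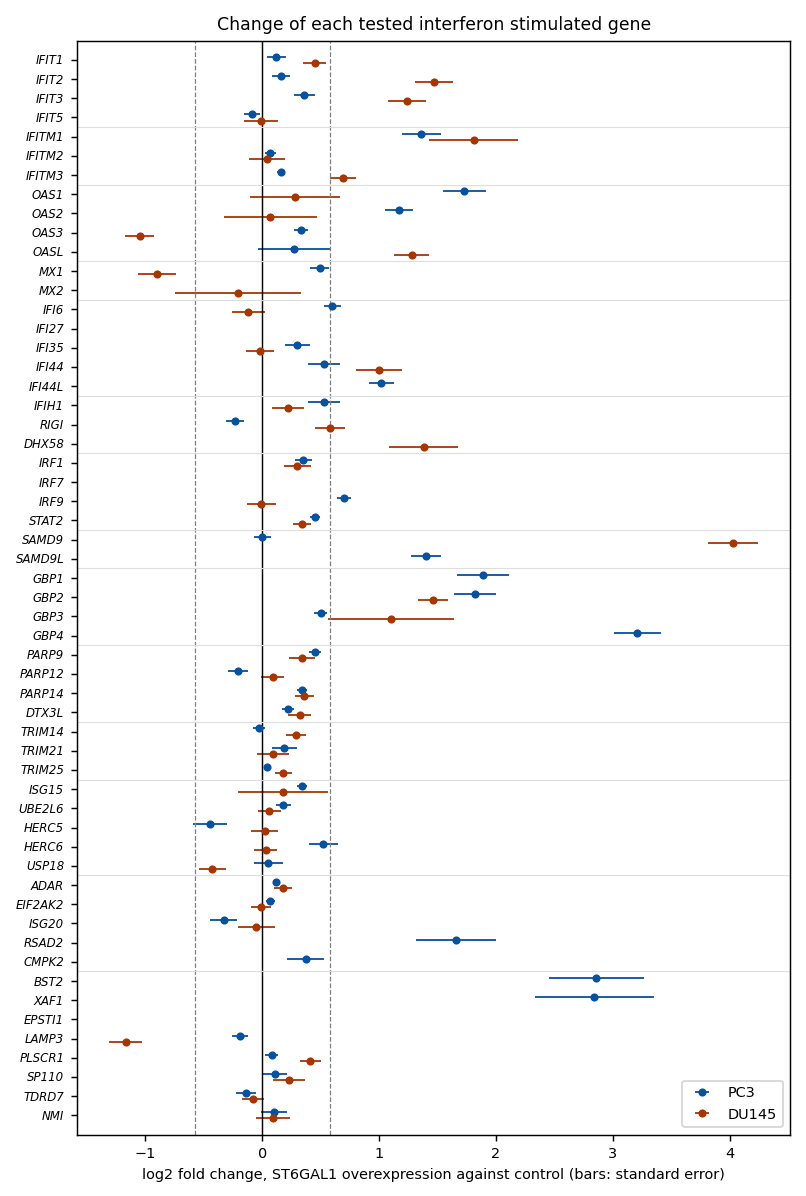
Log2 fold change of each member with ST6GAL1 overexpression against control (horizontal axis), with the standard error as a bar, in PC3 (blue) and DU145 (brown). Dashed lines mark the fold threshold of 0.58. Members without a point were not tested in that line. Most points lie to the right of 0, with GBP4 at 3.21 in PC3 and SAMD9 at 4.03 in DU145 farthest out.

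SAMD9 and SAMD9L, neighbouring paralogs on chromosome 7 (93099518 to 93117979 and 93130056 to 93148385, GRCh38) that restrict poxviruses and curb cell growth, were each called in 1 line. SAMD9 read 0.661, 0.571 and 0.823 normalized CPM in the DU145 control libraries and 11.8 and 10.5 with ST6GAL1, with no overlap, and rose by 4.03 on the log2 scale (SE 0.213, edgeR adjusted p = 2.77e-08). Both overexpression libraries held 183 and 188 reads of it, where the controls held 9 to 11. In PC3 it was already at 20, 19.4 and 21.9 in control cells and was at 22.4, 18.5 and 20.5 with ST6GAL1, and the groups overlapped. The change differed between the lines by 4.02 (SE 0.22, edgeR interaction, adjusted p = 3.76e-10). SAMD9 levels in DU145 with ST6GAL1 stayed under the lowest PC3 library.

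For SAMD9L the call was in PC3, the only line in which it was tested on its own. In PC3 it read 3.70, 4.24 and 3.52 in control and 9.18, 9.87 and 11.2 with ST6GAL1, and rose by 1.40 (SE 0.126, edgeR adjusted p = 4e-12) with no overlap between groups. In DU145 it held 1, 1 and 0 counts in control and 3 and 2 with ST6GAL1, at or under the floor in all 5 libraries, and was not tested there. In the fit over all libraries its change did not pass the test of a difference between the lines (0.17, SE 0.559, edgeR interaction, adjusted p = 0.91). The reads of the paralogs could in part be shared, since how the counting treated reads with more than 1 match is not given in the sources used here.

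Guanylate binding proteins are large GTPases that attack intracellular pathogens and respond to interferon gamma as well as to type I interferon. All 4 measured members had an adjusted p under 0.05 and higher values in PC3, and 3 of them passed the fold threshold. GBP4 read 0.840, 0.885 and 0.587 normalized CPM in PC3 control and 7.82, 7.72 and 6.19 with ST6GAL1 (log2 fold change 3.21, SE 0.201, edgeR adjusted p = 6.64e-17). GBP1 read 0.784, 1.45 and 0.913 in control and 3.67, 3.70 and 4.29 with ST6GAL1 (log2 fold change 1.89, SE 0.223, edgeR adjusted p = 4.59e-09). In neither gene did a control library reach an overexpression library. In DU145 GBP4 held 0, 0 and 1 counts in control and 4 and 1 with ST6GAL1, GBP1 held 1, 2 and 2 counts against 7 and 8, and neither was tested.

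GBP2 was 1 of the 2 members called higher in both lines. It read 1.62, 2.34 and 1.24 in PC3 control and 6.87, 5.46 and 6.12 with ST6GAL1 (log2 fold change 1.82, SE 0.183, edgeR adjusted p = 8.57e-11). In DU145 it read 10.4, 8.44 and 8.75 in control and 26.6 and 23.9 with ST6GAL1 (log2 fold change 1.46, SE 0.129, edgeR adjusted p = 3.2e-06). The groups did not overlap in either line. The PC3 overexpression libraries all stayed under the lowest DU145 control library. GBP3, whose sequence is close to that of GBP1, read 29.5 to 33.4 in PC3 control and 40.7 to 46.2 with ST6GAL1, a log2 fold change of 0.50 under the threshold, and 0.0748 to 0.529 in DU145 control and 0.774 and 0.782 with ST6GAL1, which did not pass (edgeR adjusted p = 0.175).

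Among the IFITM proteins, membrane proteins that hinder virus entry, IFITM1 was the other member called in both lines. Its libraries read 1.85, 2.78 and 2.22 normalized CPM in PC3 control and 5.44, 5.90 and 6.06 with ST6GAL1 (log2 fold change 1.36, SE 0.166, edgeR adjusted p = 1.03e-08). In DU145 they read 0.330, 0.571 and 0.449 in control and 1.87 and 1.34 with ST6GAL1 (log2 fold change 1.81, SE 0.383, edgeR adjusted p = 0.00418). The ranges were separate in both lines. IFITM3 read 94.8, 104 and 100 in PC3 control and 109, 112 and 111 with ST6GAL1, a log2 fold change of 0.16, and in DU145 21.7, 21.6 and 20.2 against 30.3 and 37.7, a log2 fold change of 0.69 (SE 0.113, edgeR adjusted p = 0.000651). That call was lost without overexpression replicate 3 (0.53). The changes of IFITM3 differed by 0.53 between the lines (edgeR interaction, adjusted p = 0.00132). IFITM2 had log2 fold changes of 0.07 and 0.04 in PC3 and DU145. The IFITM genes are near-identical in part of their coding sequence, and reads may be split among them.

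The IFIT proteins bind viral RNA that lacks the host's cap marks, and here the calls were in DU145. IFIT2 read 13.5, 14.5 and 11.1 in DU145 control and 41.9 and 30.1 with ST6GAL1, with no overlap (log2 fold change 1.47, SE 0.162, edgeR adjusted p = 0.00021). In PC3 it read 17.3, 19.3 and 18.2 in control and 21.2, 19.3 and 20.8 with ST6GAL1, with 1 control library at the level of an overexpression library. The changes differed by 1.29 (SE 0.177, edgeR interaction, adjusted p = 7.43e-05). For IFIT3 the DU145 values were 18.4, 16.2 and 12.5 in control against 41.3 and 33.0 (log2 fold change 1.24, SE 0.16, edgeR adjusted p = 0.000616). In PC3 they were 9.91, 9.36 and 10.1 against 12.2, 13.5 and 12.0, separate in range but with a log2 fold change of 0.36. The difference between the lines was 0.87 for IFIT3 (edgeR interaction, adjusted p = 0.00271). IFIT1 had log2 fold changes of 0.12 in PC3 and 0.45 in DU145, and IFIT5 of -0.09 and -0.01, none past the fold threshold.

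The OAS enzymes make the second messenger that activates RNase L, and the family split between the lines. OAS1 and OAS2 rose in PC3. OAS1 read 1.34, 2.40 and 2.67 normalized CPM in PC3 control and 5.85, 8.44 and 6.57 with ST6GAL1 (log2 fold change 1.73, SE 0.183, edgeR adjusted p = 1.04e-09). OAS2 read 4.09, 4.17 and 4.96 in control and 10.4, 9.43 and 9.98 with ST6GAL1 (log2 fold change 1.17, SE 0.12, edgeR adjusted p = 1.31e-10). Both separated the groups. In DU145 the values of OAS1 were 0.727, 0.634 and 0.972 against 1.10 and 0.782, and those of OAS2 were 0.991, 1.27 and 0.524 against 1.16 and 0.837, overlapping in both genes. The differences between the lines were -1.46 for OAS1 (edgeR interaction, adjusted p = 0.0376) and -1.11 for OAS2 (edgeR interaction, adjusted p = 0.0381). The difference of OAS1 was lost without PC3 control replicate 1, PC3 overexpression replicate 2 or 3, any DU145 control library or DU145 overexpression replicate 3, with edgeR adjusted p up to 0.116. That of OAS2 was lost without PC3 control replicate 1 or 2, any PC3 overexpression library, DU145 control replicate 1 or 2 or DU145 overexpression replicate 3, and by DESeq2, limma-voom and the replicate block, with adjusted p up to 0.186.

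OAS3 and OASL, the latter without synthetase activity and known as a partner of RIG-I, moved in opposite directions in DU145. OAS3 read 49.2, 43.9 and 47.3 in DU145 control and 19.3 and 25.6 with ST6GAL1, so it fell by 1.05 on the log2 scale (SE 0.121, edgeR adjusted p = 4.64e-05). OASL read 18.8, 16.7 and 12.3 in control and 40.4 and 37.1 with ST6GAL1 (log2 fold change 1.28, SE 0.15, edgeR adjusted p = 0.000228). Neither gene's groups overlapped. In PC3 OAS3 read 27.5, 29.3 and 30.8 in control and 37.4, 35.2 and 37.1 with ST6GAL1, a log2 fold change of 0.33. The change of OAS3 differed between the lines by -1.38 (SE 0.129, edgeR interaction, adjusted p = 2.43e-07). OASL was near 1 normalized CPM in PC3, at 0.896, 0.885 and 0.652 against 0.884, 0.993 and 1.07.

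MX1, a GTPase that traps viral nucleocapsids, followed OAS3. It read 11.2, 8.88 and 9.50 in DU145 control and 5.42 and 5.14 with ST6GAL1, and fell by 0.90 on the log2 scale (SE 0.161, edgeR adjusted p = 0.00131) with separate groups. In PC3 its libraries read 14.9, 13.0 and 15.3 in control and 20, 21.5 and 18.8 with ST6GAL1, a log2 fold change of 0.49 (edgeR adjusted p = 3.74e-06) under the fold threshold. The changes differed by -1.39 (SE 0.167, edgeR interaction, adjusted p = 5.89e-06). MX2 held 4 to 22 counts in PC3, where it was not tested, and 5 to 14 in DU145, with a log2 fold change of -0.21.

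**Figure D3:**
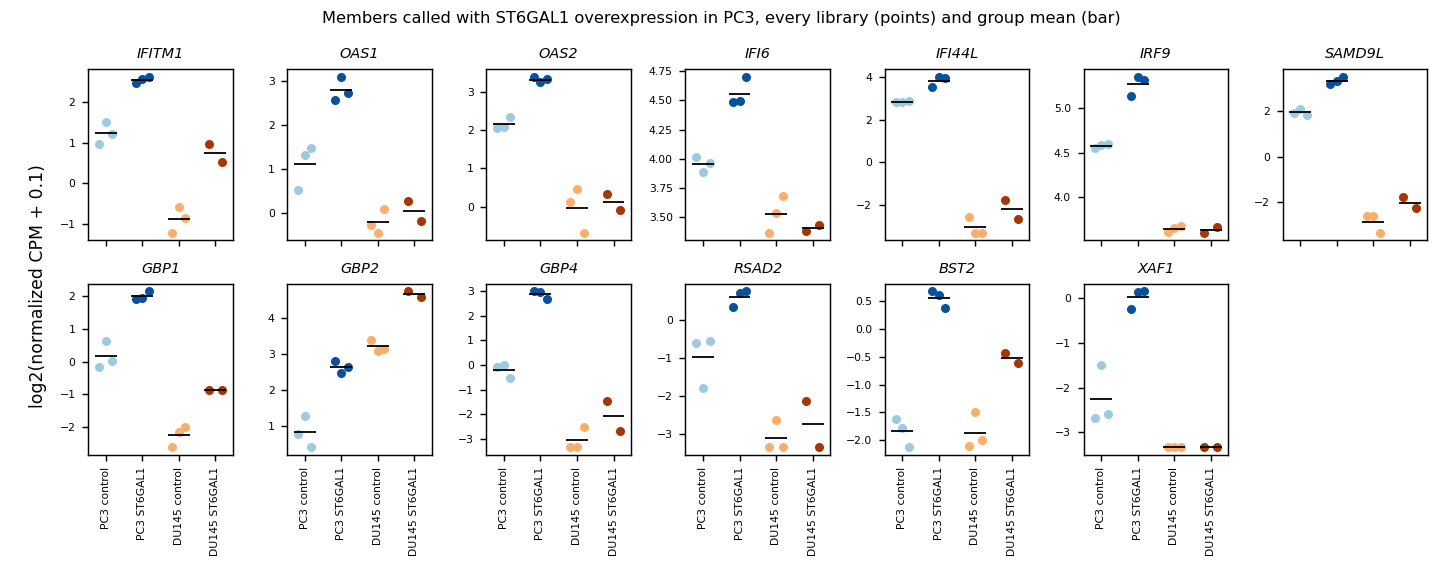
The 13 members called in PC3, each library as a point and the group mean as a bar, on a vertical axis of log2(normalized CPM + 0.1) with its own range per gene. In every panel the 3 PC3 overexpression libraries (dark blue) lie above the 3 control libraries (light blue). XAF1 is at 0 in all DU145 libraries.

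The sensors of viral RNA behaved differently from each other. RIGI, which recognises uncapped RNA ends, read 10.7, 10.7 and 10.4 in DU145 control and 16.6 and 15.0 with ST6GAL1, with no overlap (log2 fold change 0.58, SE 0.125, edgeR adjusted p = 0.00453). It sat at the fold threshold, and the call was kept under only 2 of 13 alternatives, over which the log2 fold change ran from 0.45 to 0.66. In PC3 it read 21.6, 23.8 and 24.9 in control and 17.4, 22.3 and 19.7 with ST6GAL1, a log2 fold change of -0.23 (edgeR adjusted p = 0.0162). The difference between the lines was 0.81 (SE 0.146, edgeR interaction, adjusted p = 0.000492). DHX58, which encodes the regulatory helicase LGP2, was at 0 counts in all 6 PC3 libraries. In DU145 it read 1.26, 1.59 and 0.673 in control and 2.77 and 3.41 with ST6GAL1 (log2 fold change 1.38, SE 0.296, edgeR adjusted p = 0.00453). Against the floor of 3 counts over the group (0.0616 CPM), DHX58 was at least 19.0-fold higher in DU145 control than in PC3 control cells. IFIH1, the sensor of long double-stranded RNA, had log2 fold changes of 0.53 in PC3 and 0.22 in DU145.

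Of the transcription factors, IRF9 rose in PC3. It is the DNA-binding partner of STAT2. The PC3 libraries read 23.3, 24.0 and 24.1 in control and 35.2, 40.8 and 39.8 with ST6GAL1, with no overlap (log2 fold change 0.70, SE 0.0614, edgeR adjusted p = 1.75e-12). In DU145 IRF9 read 12.1, 12.4 and 12.6 against 12.0 and 12.5, and the difference between the lines was -0.71 (SE 0.122, edgeR interaction, adjusted p = 0.000294). STAT2 had log2 fold changes of 0.45 in PC3 and 0.34 in DU145, and IRF1 of 0.35 and 0.30, under the fold threshold in both lines. IRF7, which amplifies interferon production, held 3, 10 and 13 counts in PC3 control and 3 in each PC3 library with ST6GAL1, 1 in each DU145 control library and 0 in both with ST6GAL1, and was tested in neither line.

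The IFI genes are strongly induced by interferon and their functions are less settled. IFI44L read 6.89, 7.08 and 7.17 in PC3 control and 11.5, 15.9 and 15.2 with ST6GAL1 (log2 fold change 1.02, SE 0.107, edgeR adjusted p = 2.15e-10). In DU145 it held 1, 0 and 0 counts against 3 and 1. Its neighbour IFI44 read 2.71, 2.47 and 2.17 in DU145 control and 4.58 and 5.19 with ST6GAL1 (log2 fold change 1.00, SE 0.196, edgeR adjusted p = 0.00249). In PC3 it read 4.59, 4.36 and 5.67 against 6.46, 6.51 and 8.08, a log2 fold change of 0.53 under the threshold. The groups of IFI44 were apart in both lines.

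IFI6, a mitochondrial and endoplasmic reticulum protein, read 16.1, 14.7 and 15.5 in PC3 control and 22.3, 22.4 and 25.9 with ST6GAL1 (log2 fold change 0.60, SE 0.0755, edgeR adjusted p = 1.64e-08). Its call was lost without control replicate 2 (0.57) or overexpression replicate 3 (0.53). In DU145 it read 10.2, 11.5 and 12.7 against 10.3 and 10.7, overlapping, and the changes differed by -0.73 (edgeR interaction, adjusted p = 0.00136). IFI35 had log2 fold changes of 0.30 in PC3 and -0.02 in DU145. IFI27 was at 0 counts in all 11 libraries, which allows up to 0.165 to 0.227 CPM in a single library.

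BST2, the tetherin that holds budding virions at the cell surface, read 0.224, 0.190 and 0.130 in PC3 control and 1.5, 1.43 and 1.20 with ST6GAL1 (log2 fold change 2.86, SE 0.406, edgeR adjusted p = 2.68e-07). These are 4, 3 and 2 counts against 22, 26 and 19. In DU145 it held 2, 4 and 2 counts against 10 and 10, and was not tested. XAF1, a binding partner of the apoptosis inhibitor XIAP, held 1, 4 and 1 counts in PC3 control and 11, 18 and 16 with ST6GAL1, or 0.0560, 0.253 and 0.0652 against 0.748, 0.993 and 1.01 normalized CPM (log2 fold change 2.84, SE 0.509, edgeR adjusted p = 1.82e-05). Its fold change rested on few control reads, and without control replicate 2 it was 3.78. XAF1 was at 0 in all 5 DU145 libraries, so in the overexpressing cells PC3 was at least 10.3-fold higher (floor of 3 counts over the group, 0.0886 CPM).

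LAMP3, a lysosomal membrane protein best known from mature dendritic cells, fell in DU145. It read 15.5, 14.1 and 14 in control and 6.70 and 6.14 with ST6GAL1, with no overlap, and fell by 1.17 on the log2 scale (SE 0.14, edgeR adjusted p = 4.5e-05). In PC3 it read 31.6, 26.8 and 28.5 against 25.0, 24.3 and 27.1, with overlap, a log2 fold change of -0.19. The changes differed by -0.99 (edgeR interaction, adjusted p = 5.06e-05). The other effectors were PLSCR1, SP110, TDRD7 and NMI, with log2 fold changes of -0.14 to 0.11 in PC3 and -0.08 to 0.41 in DU145, and EPSTI1, which held at most 8 counts in any library and was tested in neither line.

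**Figure D4:**
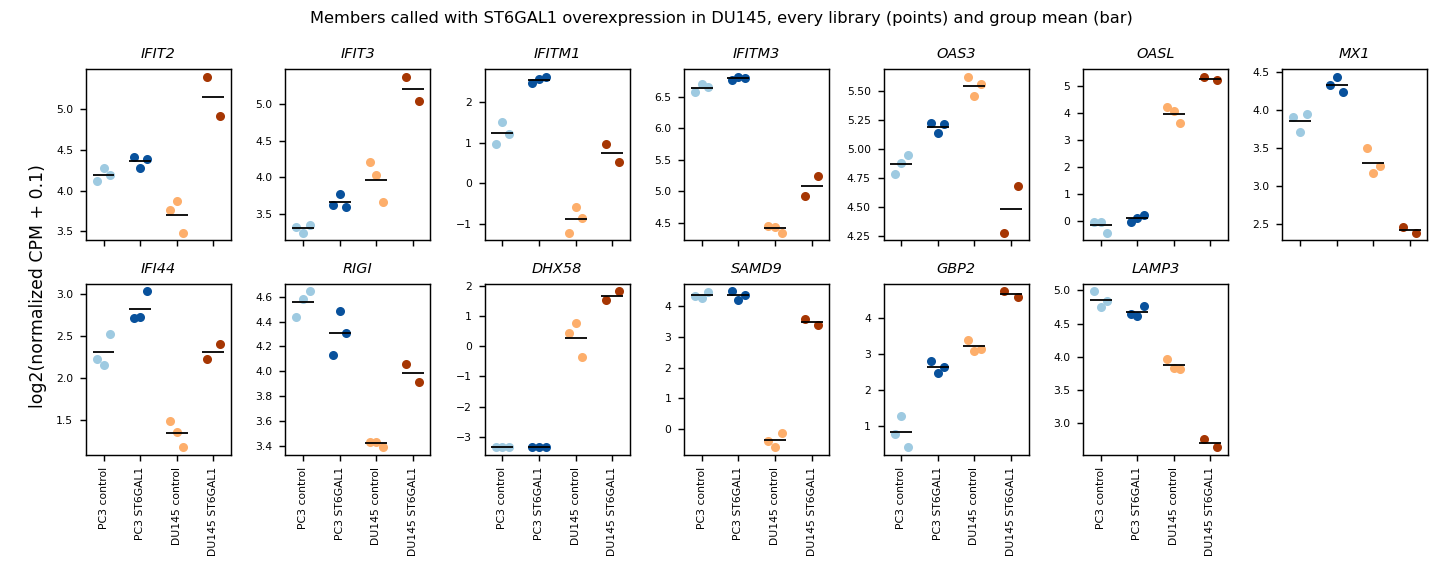
The 13 members called in DU145, each library as a point and the group mean as a bar, on a vertical axis of log2(normalized CPM + 0.1) with its own range per gene. The 2 DU145 overexpression libraries (brown) lie above the 3 control libraries (orange) in 10 panels and below them in OAS3, MX1 and LAMP3.

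RSAD2, which encodes viperin, an enzyme that makes a chain-terminating nucleotide, read 0.560, 0.190 and 0.587 in PC3 control and 1.16, 1.54 and 1.58 with ST6GAL1 (log2 fold change 1.66, SE 0.344, edgeR adjusted p = 0.00015). Its neighbour CMPK2 overlaps it by 751 bases in the annotation and read 3.19 to 5.35 in PC3 control and 4.63 to 6.44 with ST6GAL1 (log2 fold change 0.37, edgeR adjusted p = 0.0642). Whether the counting used strand is not given in the sources used here, so reads from the shared stretch cannot be told apart. In DU145 RSAD2 held 0 to 2 counts and CMPK2 0 to 1. The other RNA-directed enzymes were ADAR, which edits adenosine to inosine, the kinase EIF2AK2 (PKR) and the exonuclease ISG20, with log2 fold changes of 0.12, 0.07 and -0.33 in PC3 and 0.18, -0.01 and -0.05 in DU145.

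Some subgroups held no called member in either line. ISG15 and the enzymes that attach it or remove it gave log2 fold changes of -0.45 (HERC5) to 0.52 (HERC6) in PC3 and -0.43 (USP18) to 0.18 (ISG15) in DU145. HERC6 read 5.66, 5.19 and 5.15 in PC3 control and 6.87, 8.38 and 7.64 with ST6GAL1, apart in range, and 26.5, 26.6 and 25.3 against 26.6 and 26.5 in DU145. The difference between the lines was -0.50 for HERC6 (edgeR interaction, adjusted p = 0.0142). ISG15 itself read 59.3, 54.8 and 56.9 in PC3 control and 68.4, 72.7 and 75.1 with ST6GAL1 (log2 fold change 0.34, edgeR adjusted p = 4.96e-08). Its 2 DU145 overexpression libraries lay at 6.58 and 15.2, on either side of the controls at 8.33, 9.45 and 11.6.

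PARP9 and its partner DTX3L, which share a promoter region, had small log2 fold changes in both lines, under the fold threshold. PARP9 read 32.6, 32.3 and 33.9 in PC3 control and 42.7, 45.8 and 45.9 with ST6GAL1 (log2 fold change 0.45, SE 0.053, edgeR adjusted p = 5.12e-09), and 19.8, 18 and 18.5 against 25.3 and 22.2 in DU145 (log2 fold change 0.34, SE 0.114, edgeR adjusted p = 0.0481). In both lines the groups were apart. DTX3L, which overlaps PARP9 by 447 bases, had log2 fold changes of 0.22 and 0.32, and PARP14 of 0.34 and 0.36. PARP12 went the other way in PC3, at 13.3, 14.6 and 15.3 in control and 12.5, 12.6 and 12.1 with ST6GAL1. Its log2 fold change was -0.21 in PC3 (edgeR adjusted p = 0.0505) and 0.09 in DU145. Among the TRIM ubiquitin ligases, TRIM14 read 43.9, 43.1 and 43.0 in PC3 control and 43.1, 41.4 and 42.9 with ST6GAL1, with overlap, and 42.6, 41.0 and 41.8 against 50.5 and 51.3 in DU145, with none (log2 fold change 0.29, SE 0.0854, edgeR adjusted p = 0.0274). TRIM21 and TRIM25 ranged from 0.04 to 0.19 over the lines.

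Set side by side, the 2 lines shared few calls. Of 43 members tested in both, 31 had the same sign of change and 12 opposite signs. Calls were made for 24 members in either line and for 2 (IFITM1 and GBP2) in both. Of the 13 called in PC3, 7 were not tested in DU145 for lack of counts there (IFI44L, SAMD9L, GBP1, GBP4, RSAD2, BST2 and XAF1), so that a missing call in DU145 says nothing of those. In the fit over all 11 libraries, an alternative with another filter, 2 of the 7 were called higher in DU145 too, GBP1 by 1.92 (edgeR adjusted p = 0.0244) and BST2 by 1.69 (edgeR adjusted p = 0.0147) on the log2 scale. In 9 members the adjusted p was under 0.05 with higher values in both lines, among them STAT2, PARP9, PARP14 and IFI44. Over the 43 members the log2 fold changes of the lines correlated at 0.20 (Pearson) and 0.24 (Spearman), a description across genes, which are not independent replicates.

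The difference of the changes was tested in 1 fit over all 11 libraries. Of 54 members 16 had a change that differed between the lines, 7 with the higher change in DU145 and 9 with the lower, where 19.7% of 14952 genes differed, 10.4% and 9.36% by direction. The 7 were IFIT2, IFIT3, IFITM3, RIGI, SAMD9, TRIM14 and PLSCR1. The 9 were OAS1, OAS2, OAS3, MX1, IFI6, IRF9, HERC6, USP18 and LAMP3. The share of members was 29.6%. The calls of OAS1, OAS2, HERC6, USP18 and PLSCR1 were lost under at least 1 alternative. HERC6 was lost by DESeq2 and without PC3 overexpression replicate 2 (adjusted p up to 0.0617), and USP18 and PLSCR1 were lost by DESeq2 and without most single libraries (adjusted p up to 0.118 and 0.119). The other 11 were kept under all that gave a value. The lines were held in separate tables with their own libraries, and the sample titles name no sequencing run. A difference of line therefore cannot be told apart from one in how the libraries of each line were handled.

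The level of the members in control cells was compared between the lines. Of 54 members 15 (27.8%) were higher and 23 (42.6%) lower in DU145 control than in PC3 control (adjusted p under 0.05 and a log2 difference over 0.58). Of all genes 31.7% were higher and 33.2% lower. The median difference over the members was -0.46, also with the members at 0 in a group set to their bound, and over all genes it was -0.009. OASL was higher in DU145 control by 4.28 (SE 0.197, edgeR adjusted p = 1.06e-13), GBP2 by 2.40, HERC5 by 2.34 and HERC6 by 2.29 on the log2 scale. SAMD9 was lower there by 4.90 (SE 0.164, edgeR adjusted p = 4.9e-16), and IFITM1, IFITM2 and IFITM3 had log2 differences of -2.31, -2.54 and -2.23. IFI44L, CMPK2, SAMD9L, RSAD2 and GBP4 held at most 1 count in any DU145 control library. Level per kilobase of transcript, with control means as normalized CPM per kb, was highest for IFITM3 (163) in PC3, followed by ISG15 (89.5), and in DU145 for ADAR (108), followed by IFITM3 (34.6).

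**Figure D5:**
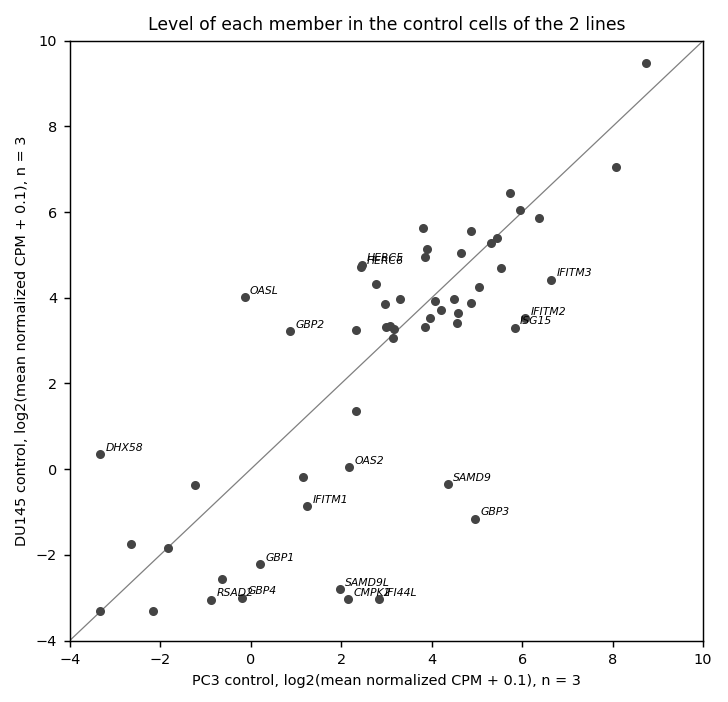
Mean level of each of the 56 members in PC3 control (horizontal) and DU145 control (vertical), both as log2(normalized CPM + 0.1) over 3 libraries, with a line of equality. Names mark members more than 2 log2 units from the line, such as OASL above it and SAMD9, GBP3 and IFI44L below it.

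Tested pathway genes that are no members had log2 fold changes of -0.59 to 0.58 in PC3 and -0.36 to 0.46 in DU145. A list of 43 pathway genes that are no members held 21 interferon genes, 19 of which had 0 counts in all 11 libraries, including IFNB1, and IFNA5 had 1 count in all. The exception was IFNE, the epithelial interferon, at 0.840, 1.20 and 1.76 normalized CPM in PC3 control and 1.29, 2.21 and 2.02 with ST6GAL1, with overlap (log2 fold change 0.58, edgeR adjusted p = 0.0872). The receptor genes IFNAR1 and IFNAR2 had log2 fold changes of -0.02 and 0.11 in PC3 and -0.10 and -0.16 in DU145. Those of the kinases JAK1 and TYK2 were -0.05 and 0.07 in PC3 and -0.04 and -0.36 in DU145. TYK2 read 103, 111 and 119 in DU145 control and 66.4 and 105 with ST6GAL1, with overlap (edgeR adjusted p = 0.304).

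Of 23 pathway genes tested in PC3, 0 were called higher and 1 lower, where 3.61% of all tested genes were called higher and 1.76% lower. The gene called lower was SOCS3, which encodes a feedback inhibitor of cytokine receptors. It read 34.3, 32.1 and 33.7 in PC3 control and 21.1, 22.6 and 22.9 with ST6GAL1, apart in range (log2 fold change -0.59, SE 0.0615, edgeR adjusted p = 2.36e-10). Of 20 tested in DU145 none was called by edgeR, where 4.33% of all tested genes were called higher and 4.61% lower. At an unadjusted p under 0.05, 4 were higher and 2 lower. At an adjusted p under 0.05 without the fold threshold 3 were higher and 0 lower, against 10.7% and 9.42% of all genes. These counts describe the list and carry no test of it. STING1, the adaptor of cytosolic DNA sensing, had a log2 fold change of 0.52 in PC3 and of -0.09 in DU145, a difference of -0.61 (edgeR interaction, adjusted p = 0.000791). In these bulk libraries, a change in RNA per cell and a change in the share of cells that express a gene cannot be told apart.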

How the data were processed

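RNA was sequenced as single reads from TruSeq Stranded mRNA libraries. In Galaxy the authors used Cutadapt for trimming, HISAT2 for mapping to hg38 and featureCounts for counting, and the deposited values are raw read counts per Entrez gene, without normalization, in 1 table per line. The gene annotation, the strand setting and the treatment of reads with several matches are not given in the sources used here. All columns were matched to samples by name, and 0 were left without one.

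Gene symbols were matched for 97.7% of identifiers. The counts were tested within each line with edgeR 4.0.16 in R 4.3.3 (filterByExpr, TMM factors, robust quasi-likelihood test, Benjamini-Hochberg adjustment over all tested genes). A call needed a log2 fold change beyond 0.58 in either direction at an adjusted p under 0.05. Whether a change differed by line came from the interaction term of a fit over the 11 libraries, at the same adjusted p. Standard errors were derived from the fold change and the F statistic. The scripts were tested on simulated counts. No replicate pair differed by less than the sampling noise. Depth sets a floor of 3 counts per library, which covers counting error only. Alternatives were RLE factors, no filter, at least 10 counts in every library, DESeq2 1.42.0, limma-voom (limma 3.58.1), the replicate number as a block, each library left out, other fold thresholds, 1 fit over all libraries and, chosen after seeing the data, removal of trends on GC content and transcript length.

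The members and lists were chosen with earlier results of these data known. Described with every library's value were the members called in either line and, in each subgroup, the member with the largest absolute log2 fold change. Pathway genes were given by role, naming those called, and the receptors, the kinases, IFNE, STING1, ISG15 and GBP3 were named after their values were seen. Some marker and pathway genes are not reported here by name. Promoters were shown for the 6 called members with the largest change that hold a match to the response element pattern and for 2 without one. A member with several windows was shown by a single one, which held a match where any did. Sequences and coordinates are from RefSeq (GRCh38.p14), and transcript lengths from GENCODE.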

Additional observations from a re-analysis of the deposited data

Results flagged for a closer look

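For 16 members the change with ST6GAL1 overexpression differed between DU145 and PC3 in edgeR's interaction test over all 11 libraries, and each is given here as a difference on the log2 scale, positive where the change was higher in DU145. SAMD9 differed most, by 4.02 (-0.00 in PC3 and 4.03 in DU145). The other members with the higher change in DU145 were IFIT2 (1.29), IFIT3 (0.87), RIGI (0.81), IFITM3 (0.53), TRIM14 (0.32) and PLSCR1 (0.32). RIGI is the member of these whose adjusted p was under 0.05 in both lines with opposite signs, -0.23 in PC3 and 0.58 in DU145.

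The lower change was in DU145 for OAS1 (-1.46), MX1 (-1.39), OAS3 (-1.38), OAS2 (-1.11), LAMP3 (-0.99), IFI6 (-0.73), IRF9 (-0.71), HERC6 (-0.50) and USP18 (-0.49). OAS3 and MX1 changed in opposite directions, with log2 fold changes of 0.33 and 0.49 in PC3 and of -1.05 and -0.90 in DU145, each with an adjusted p under 0.05 in edgeR's test of its line. PLSCR1 (adjusted p = 0.0362), USP18 (0.0355), OAS1 (0.0376) and OAS2 (0.0381) lay closest to the threshold in that interaction test by edgeR. A difference of line cannot be told apart from one in how the libraries of each line were handled. The groups have 2 or 3 libraries, too few for a check of single outlying libraries.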

How the results depend on the processing

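Of 26 calls of members in a line, 23 were kept under every alternative that gave a value at the fold threshold of 0.58, and IFITM3 in DU145, IFI6 in PC3 and RIGI in DU145 were lost under some. At a log2 threshold of 1, 20 calls were kept, and IRF9 in PC3 and MX1 and IFI44 in DU145 were lost as well. The fit over all libraries added BST2 and GBP1 in DU145 and MX2 in PC3. Without the fold threshold the members called rose from 13 to 30 (higher, PC3), from 0 to 4 (lower, PC3) and from 10 to 17 (higher, DU145). With at least 10 counts in every library 9 members were called higher in PC3, since BST2, GBP4, RSAD2 and XAF1 are then no longer tested. In DU145 6 members were then called higher, since DHX58, IFITM1 and SAMD9 are no longer tested and RIGI falls under the fold threshold. Between the control cells 25 instead of 38 members differed under that setting, since fewer members are tested. IRF7 was called lower in PC3 (1 member) without a filter on low counts, and again without control replicate 1. Leaving out each library in turn gave 0 to 1 members called lower and 12 to 16 called higher in PC3, and 9 to 10 called higher and 3 called lower in DU145. Without DU145 overexpression replicate 3 the genes called lower in DU145 numbered 1398 instead of 630 over all genes.

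Values near 0 changed sign. OAS2 in DU145 (0.07) was -0.20 to 0.35 with single libraries left out (-0.18 without overexpression replicate 2) and -0.03 with the GC and length trend removed. IRF9 in DU145 (-0.01) was -0.04 to 0.01 with libraries left out and 0.06 with the trend removed. SAMD9 in PC3 (-0.00) was -0.07 to 0.07 with libraries left out and 0.02 with the trend removed, and HERC6 in DU145 (0.03) was -0.01 to 0.04 and -0.08.

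In PC3 same-numbered libraries correlated by 0.004 to 0.072 and differently numbered ones by -0.056 to 0.022, so no strong pairing by number was seen. DU145 has only 2 pairs (0.132 and 0.37). Its 2 overexpression libraries deviate from their mean as mirror images, so pairing could not be judged there. In DU145 a block by replicate number raised the genes with an edgeR adjusted p under 0.05 from 2747 to 3669. With the replicate number as a block, 13 members were called higher and 0 lower in PC3, 11 higher and 3 lower in DU145 (GBP3 added), and SAMD9 in PC3 was 0.00. The difference between the lines then held for 16 members, with OAS2 and USP18 lost and IFIT1 and OASL gained.

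Members with low counts in too many libraries of a line, by edgeR's filter, could not be tested there. DU145 with 2 overexpression libraries showed a larger spread than PC3 (biological coefficient of variation 0.0817 against 0.0226).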
